A study of Rattus norvegicus with 12 samples.

Results

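The class I antigen presentation and immunoproteasome genes of healing rat bone were followed as 9 genes, RT1-M2, B2m, Tap1, Tap2, Tapbp, Psmb8, Psmb9, Psmb10 and Nlrc5, which were picked by name among the 22601 genes of the expression table. The choice was made with earlier results of these data known. RNA of regenerating tissue was sequenced 2 weeks after a defect of 3 mm was made in the distal femur of rats. The rats were Sprague Dawley, an outbred stock, and 8 weeks old when the defect was made. The Hydrogel group received a 3D printed scaffold of gelatin methacryloyl, the PCL group one of the polyester polycaprolactone, the TCP group one of the ceramic β-tricalcium phosphate, and the Control group had the same defect with no scaffold, with 3 libraries in each of the 4 groups. The labels call the tissue bone, and the libraries are of bulk tissue, so that fewer cells of a type and less RNA per cell cannot be told apart. The labels do not say whether each library came from a separate rat, and p-values thus measure the spread between these libraries, which may in part be technical.

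Class I molecules show peptides from inside the cell to CD8+ T cells. Proteins are cut by the proteasome, the peptides are pumped into the endoplasmic reticulum by the Tap1 and Tap2 transporter, and tapasin (Tapbp) holds the transporter beside the empty class I heavy chain until a peptide binds, with β2-microglobulin (B2m) as the light chain. Interferon γ is known to induce most of these genes, among them Nlrc5, which drives class I transcription, and the 3 catalytic subunits Psmb8, Psmb9 and Psmb10, which replace Psmb5, Psmb6 and Psmb7 to form the immunoproteasome. In bone, marrow-derived cells carry much of this machinery, and foreign materials draw such cells into a defect.

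Because interferon response is what most of the genes are known for, their promoters were searched for the core of the interferon-stimulated response element, GAAANNGAA, and for the gamma-activated site, TTCNNNGAA, on both strands of RefSeq windows reaching from 250 bases before to 50 bases after the gene's start in the GRCr8 assembly. Windows were at hand for 7 of the 9 genes, and RT1-M2 and Nlrc5 were not searched. The response element letters were found in 6 of the 7 windows, in all but that of Psmb9, whereas 9.71% of 33469 windows of the same length hold them. The stretches are shown with the matched letters in capitals and read along the gene, so that in Tap1 and Psmb8, where the match is on the opposite strand, its reverse complement is seen.
B2m, chr3:129549170-129549199, plus strand: ataagaacatGAAACTGAAaatgggaaagt
Tap1, chr20:4668644-4668673, minus strand: ggtggctgctTTCGGTTTCttcttcctcta
Tap2, chr20:4652318-4652347, minus strand: gcagcgaagtGAAAGCGAAagcccgggacc
Tapbp, chr20:4967884-4967913, minus strand: gcctttgaggGAAAATGAAagtgaaaggaa
Psmb8, chr20:4657015-4657044, minus strand: tgctgtggctTTCGCTTTCacttccttgtc
Psmb10, chr19:50743346-50743375, minus strand: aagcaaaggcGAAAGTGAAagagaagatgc
Tapbp held a further match overlapping the one shown, and Psmb10 held 2 more, 1 of them overlapping. Among the 7 windows the gamma-activated site was found only in that of Psmb8, against 8.87% of all windows. The starts of Tap1 and Psmb9, which are transcribed away from each other, lie 456 bases apart, and their windows share 44 bases. None of the windows of the constitutive subunits Psmb5, Psmb6 and Psmb7 held either motif. Among the windows of other class I RT1 genes, the response element letters were found only in RT1-N3, RT1-S2 and RT1-S3. The gamma-activated site was found there only in RT1-M1-5 and RT1-M3-1. Of the proteasome activator genes Psme1 and Psme2, Psme1 held neither motif and Psme2 the response element letters. Irf1, of the interferon γ pathway, held only the gamma-activated site. A match is a description of the letters, not a site of binding.

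The libraries were of even depth, with 14062522 to 16347610 fragments recovered per library, but not of even content. Control replicate 3 stood apart. Its summed FPKM (fragments per kilobase of gene, scaled to the depth of the library) was 31.9 for 11 erythroid markers, 40.5 for 9 neutrophil markers, 17.2 for 9 B cell markers, 14.1 for 8 dendritic cell markers and 58.6 for 15 T and cytotoxic cell markers, the lowest of the 12 libraries for each list, while it had the highest sums for cartilage (13500) and bone-forming cell markers (26100). It was also the lowest of the 12 libraries for all 9 genes followed here. TCP replicates 2 and 3 were far closer to each other than any other replicates, with a chi-square per degree of freedom of 2.18 over genes against 31.9 to 305.3 for the other pairs within groups. They differed by more than counting noise and were kept as separate libraries. With these 2 averaged as 1 library, or with either of them left out, the genes called in TCP against Control fell to 11 of 12633, against 604 in the fit of all libraries and 1350 without Control replicate 3.

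RT1-M2, a class I heavy-chain gene of the RT1-M region, was the gene of the set that differed most from Control. It had 3.49, 4.11 and 3.79 FPKM in the Hydrogel libraries, 1.39, 3.40 and 3.09 FPKM in the PCL libraries and 4.61, 5.06 and 5.73 FPKM in the TCP libraries, against 0.823, 0.700 and 0.593 FPKM in the Control libraries. Every scaffold library lay above every Control library, and PCL replicate 1 was the lowest of the scaffold libraries. These are low levels, resting on 59 to 67 fragments per Hydrogel library, 24 to 61 per PCL library and 81 to 98 per TCP library, against 10 to 13 per Control library. The ratio of mean FPKM to Control was 5.38 in Hydrogel, 3.72 in PCL and 7.28 in TCP. On the log2(FPKM + 1) scale, which understates the change of a low gene, RT1-M2 rose in TCP against Control by 1.84 (SE 0.20, adjusted p = 0.00444, limma over 12633 genes). The difference was 1.49 in Hydrogel (SE 0.20, unadjusted p = 1.96e-05, adjusted p = 0.0988, limma) and 1.04 in PCL (SE 0.20, adjusted p = 0.0732, limma), and neither passed the adjusted threshold of 0.05. Over the 12 fits that left out 1 library, each passed in only 1, the fit without PCL replicate 1, the lowest scaffold library. Adjusted p there was 0.0035 in Hydrogel and 0.010 in PCL (limma). Without Control replicate 3 the 3 log2 differences were 1.44 in Hydrogel (adjusted p = 0.0755, limma), 0.99 in PCL (adjusted p = 0.0989) and 1.80 in TCP. The TCP difference stayed called (adjusted p = 0.0104, limma), as it did with TCP replicates 2 and 3 averaged (log2 difference 1.81, adjusted p = 0.0392). RT1 genes are alike in sequence, and how fragments shared between them were counted is not stated, so the level of RT1-M2 is uncertain to that extent.

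B2m, the light chain shared by class I molecules, was by far the most abundant gene of the set. It had 871, 1182 and 823 FPKM in Hydrogel, 980, 1008 and 938 FPKM in PCL and 1107, 1317 and 1303 FPKM in TCP, against 868, 696 and 457 FPKM in Control. All PCL and all TCP libraries lay above all Control libraries, and the Hydrogel libraries overlapped them. B2m rose in TCP against Control by 0.93 on the log2(FPKM + 1) scale (SE 0.22, adjusted p = 0.0408, limma), while it differed by 0.54 in Hydrogel (adjusted p = 0.312) and by 0.58 in PCL (adjusted p = 0.222). The TCP call of B2m was narrow, and it held in 4 of the 12 fits that left out 1 library, with adjusted p of 0.0272 to 0.172. Without Control replicate 3 the difference was 0.67 with an adjusted p of 0.0386 (limma), and with TCP replicates 2 and 3 averaged as 1 library it was 0.89 with an adjusted p of 0.17.

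Markers of other cell types moved along with both genes. In TCP, 7 of 11 tested macrophage markers rose against Control (limma, adjusted p under 0.05), where 4.78% of all tested genes were called. Among them was the scavenger receptor Msr1, with 17.1, 60.3 and 62.4 FPKM in TCP against 8.87, 7.45 and 9.28 FPKM in Control (log2 difference 2.12), so that TCP replicates 2 and 3 were the high libraries. The 12 macrophage markers summed to 1320 to 1870 FPKM against 688 to 863 FPKM in Control, with Marco at 0 in all TCP and all Control libraries. Osteoclast markers summed to 9470 to 9670 FPKM in TCP against 3430 to 5560 FPKM in Control, and 3 of 6 tested rose. With TCP replicates 2 and 3 averaged, or with either left out, 0 of the 11 macrophage and 0 of the 6 osteoclast markers passed, and without Control replicate 2 there were 2 and 1. These settings were chosen after seeing the data. In Hydrogel the macrophage sum was 672 to 1030 FPKM, which overlapped Control, although all 3 Hydrogel libraries had more RT1-M2 than Control. Of the 11 tested macrophage markers, 8 had a positive log2 difference in Hydrogel against Control, and 0 were called. Their median difference was 0.32, against 0.14 over all tested genes. Cartilage markers summed to 58.1 to 823 FPKM over the 9 scaffold libraries against 2080 to 13500 FPKM in Control, so that they separated the same libraries as RT1-M2. The part of these cell types in the levels of RT1-M2 and B2m was not tested.

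**Figure D1:**
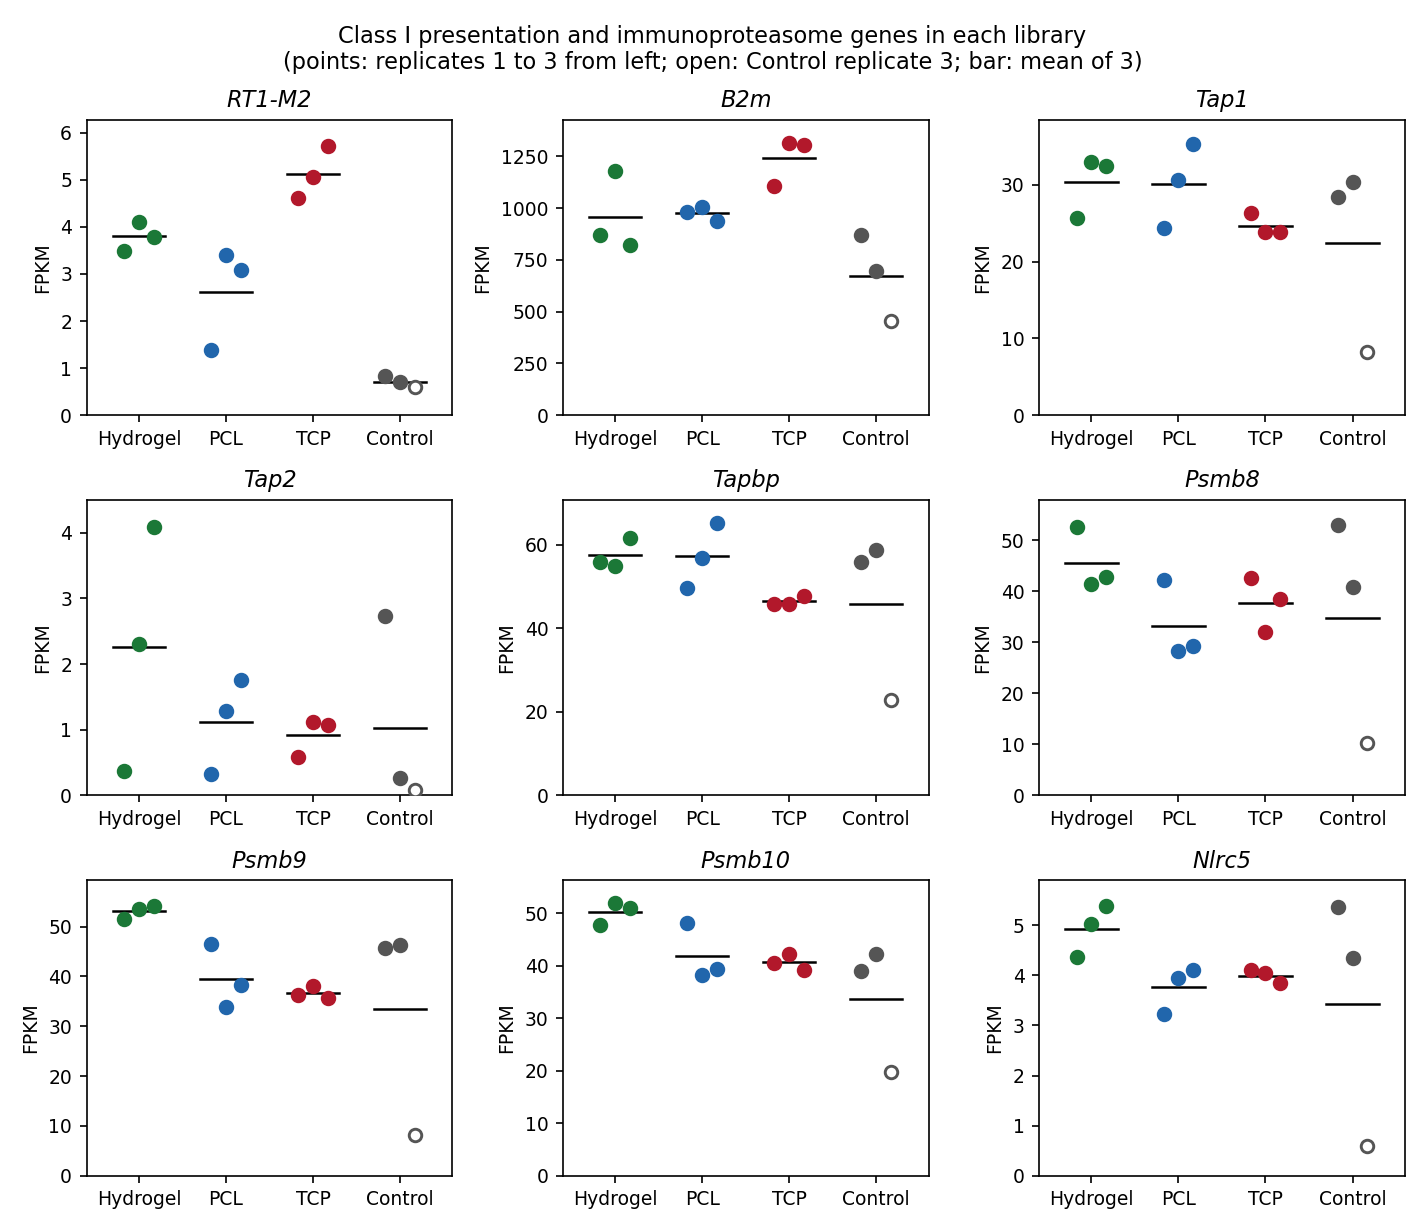
FPKM of the 9 genes in each library (y axis, from 0) for the Hydrogel, PCL, TCP and Control groups (x axis), with 1 point per library, replicates 1 to 3 from left to right, and a bar at the mean of 3. RT1-M2 was higher in all 9 scaffold libraries than in the 3 Control libraries, and the open point, Control replicate 3, was the lowest of 12 for every gene.

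Tap1, a chain of the peptide transporter, and Tapbp, which tethers it to class I, overlapped between the scaffold groups and Control. Tap1 had 25.7, 33.0 and 32.4 FPKM in Hydrogel, 24.4, 30.6 and 35.3 FPKM in PCL and 26.4, 23.8 and 23.9 FPKM in TCP, against 28.5, 30.4 and 8.27 FPKM in Control. Tapbp had 55.9, 54.9 and 61.5 FPKM in Hydrogel, 49.7, 56.9 and 65.2 FPKM in PCL and 45.8, 45.8 and 47.6 FPKM in TCP, against 55.8, 58.7 and 22.8 FPKM in Control. For both genes Control replicates 1 and 2 lay inside the scaffold range, and only Control replicate 3 lay below it. The log2 differences from Control of Tap1 were 0.61 in Hydrogel, 0.59 in PCL and 0.33 in TCP, and without Control replicate 3 they were 0.035, 0.017 and -0.25.

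Tap2, the partner chain of Tap1, varied most among replicates of one group. It had 0.372, 2.30 and 4.08 FPKM in Hydrogel, 0.321, 1.28 and 1.76 FPKM in PCL and 0.582, 1.12 and 1.07 FPKM in TCP, against 2.73, 0.272 and 0.0759 FPKM in Control. Each group thus held a low and a higher library, and all groups overlapped. The within-group SD of Tap2 on the log2(FPKM + 1) scale was 0.75, above that of 95.75% of the tested genes, where the median gene had 0.23. The FPKM of Tap1 was 7.94 to 69.0 times that of Tap2 in Hydrogel, 20.04 to 76.1 times in PCL and 21.3 to 45.3 times in TCP, against 10.4 to 112.0 times in Control, although the 2 proteins form a heterodimer.

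Among the immunoproteasome subunits, Psmb8 had 52.7, 41.4 and 42.9 FPKM in Hydrogel, 42.1, 28.3 and 29.2 FPKM in PCL and 42.7, 31.9 and 38.4 FPKM in TCP, against 53.0, 40.9 and 10.3 FPKM in Control. Psmb9 had 51.5, 53.6 and 54.2 FPKM in Hydrogel, 46.6, 33.9 and 38.3 FPKM in PCL and 36.3, 38.1 and 35.7 FPKM in TCP, against 45.8, 46.2 and 8.196 FPKM in Control. Psmb10 had 47.8, 52.0 and 51.0 FPKM in Hydrogel, 48.2, 38.2 and 39.4 FPKM in PCL and 40.6, 42.1 and 39.2 FPKM in TCP, against 38.9, 42.2 and 19.8 FPKM in Control. Psmb9 and Psmb10 were higher in all Hydrogel than in all Control libraries, and Psmb8 overlapped between all groups. None of the 3 passed the adjusted threshold against Control, where the lowest adjusted p was 0.312 for Psmb9 and Psmb10 in Hydrogel, with log2 differences of 0.99 and 0.64 (limma). Without Control replicate 3 these were 0.20 and 0.30.

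Nlrc5, the transactivator of class I genes, had 4.37, 5.02 and 5.38 FPKM in Hydrogel, 3.24, 3.94 and 4.11 FPKM in PCL and 4.10, 4.05 and 3.84 FPKM in TCP, against 5.36, 4.34 and 0.599 FPKM in Control. Control replicates 1 and 2 were again within the range of the scaffold libraries. Its log2 differences were 0.64 in Hydrogel, 0.33 in PCL and 0.40 in TCP (adjusted p of 0.338, 0.676 and 0.702, limma), and 0.020, -0.29 and -0.22 without Control replicate 3.

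Over the 9 genes, 0 were called in Hydrogel against Control at an adjusted p under 0.05, where 0.00792% of the tested genes were called, 0 in PCL (0.277% of genes) and 2, RT1-M2 and B2m, in TCP (4.78% of genes). With TCP replicates 2 and 3 averaged, RT1-M2 alone was called in TCP, beside 0.0871% of genes, and without Control replicate 3 both were, beside 10.7% of genes. Limma-voom on recovered fragments, at an adjusted p under 0.05, called 0 in Hydrogel and 0 in PCL, beside 1 and 7 of 12631 genes. At an unadjusted p under 0.05 in the main fit there were 3 in Hydrogel (RT1-M2, B2m and Psmb10, 15% of genes) and 2 in PCL (RT1-M2 and B2m, 18.4% of genes). At an unadjusted p under 0.05 with a fold over 2, the threshold used in the study's methods, RT1-M2 alone was higher in each scaffold group, 1 of 9 genes, beside 0.807% of genes in Hydrogel, 2.37% in PCL and 2.49% in TCP. All libraries of the scaffold group were higher than all Control libraries for 3 of 9 genes in Hydrogel (9.15% of genes), 2 in PCL (10.3%) and 2 in TCP (17.9%). Because the 9 genes were chosen with earlier results of these data known, these counts beside the shares of all genes are descriptions and give no independent support.

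The direction of most of the set in PCL and TCP turned on Control replicate 3. On the log2(FPKM + 1) scale all 9 differences from Control were positive in each scaffold group. Their medians were 0.64 in Hydrogel, 0.42 in PCL and 0.38 in TCP, where the medians of all tested genes were 0.14, 0.044 and 0.029. Scaling by median of ratios moved the first of these to 0.0245. By the ratio of mean FPKM to that of all Control libraries, Tap2 in TCP (0.90) and Psmb8 in PCL (0.96) were below Control. Without Control replicate 3, 8 of 9 log2 differences were positive in Hydrogel, 4 in PCL and 3 in TCP. This library held 12.4% of the mean FPKM of the other 2 Control libraries for Nlrc5, 17.8% for Psmb9, 22.0% for Psmb8 and 28.1% for Tap1, whereas for RT1-M2 it held 77.8% and the median tested gene 81.8%. Its lower sums for erythroid, neutrophil, B and T cell markers, given above, moved with these values, and their part in them was not tested.

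**Figure D2:**
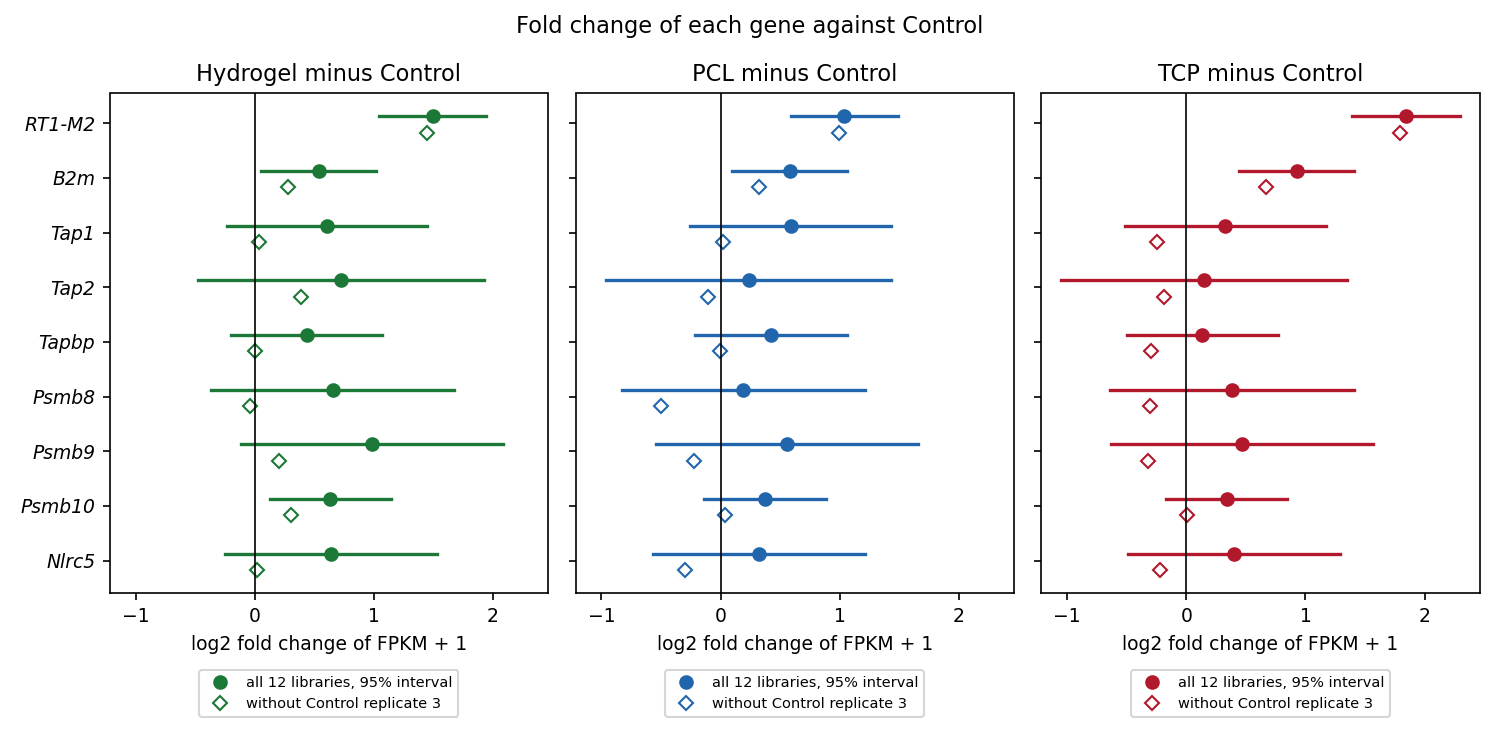
Difference of mean log2(FPKM + 1) between each scaffold group and Control (x axis) for the 9 genes (y axis), with filled points and lines for the value from all 12 libraries and its 95% interval, and open diamonds for the value without Control replicate 3. The intervals, not adjusted for the number of genes, lay above 0 for RT1-M2 and B2m in every scaffold group and for Psmb10 in Hydrogel. For Tap1, Tapbp, Psmb8 and Nlrc5 the diamonds lay near or below 0, as did those of Tap2, Psmb9 and Psmb10 in PCL and TCP.

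The scaffold groups were also compared with each other. PCL against Hydrogel had 0 of 9 genes called (0.103% of genes), TCP against Hydrogel 0 (6.13%) and PCL against TCP 0 (0.657%). At an unadjusted p under 0.05 there was 1 gene in PCL against Hydrogel (8.23% of genes), 0 in TCP against Hydrogel (34.4%) and 1 in PCL against TCP (22.4%), in both cases RT1-M2. At an adjusted p under 0.05, limma-voom called 0 of the 9 genes in all 3 comparisons. Of all 12631 genes it called 1 in PCL against Hydrogel, 637 in TCP against Hydrogel and 21 in PCL against TCP. RT1-M2 was lower in every PCL than in every TCP library, by 0.80 on the log2(FPKM + 1) scale (SE 0.20, adjusted p = 0.0984, limma), and this difference was called without Control replicate 3 (adjusted p = 0.0328), where 15.1% of all genes were called. It was lower in every PCL than in every Hydrogel library, by 0.45 (adjusted p = 0.606), and higher in every TCP than in every Hydrogel library, by 0.35 (95% interval -0.10 to 0.80, adjusted p = 0.232).

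Between TCP and Hydrogel, 4 of 9 genes were lower in all TCP libraries, Tapbp, Psmb9, Psmb10 and Nlrc5 (34.5% of genes), and 1, RT1-M2, was higher in all of them (23% of genes). In the fit of all groups none of these passed, with log2 differences of -0.30 for Tapbp (adjusted p = 0.453), -0.52 for Psmb9 (adjusted p = 0.452), -0.30 for Psmb10 (adjusted p = 0.355) and -0.24 for Nlrc5 (adjusted p = 0.673, limma). In that fit the spread of the Control libraries counts too. With only the Hydrogel and TCP libraries fitted, 4 genes passed (33.6% of genes), Psmb9 (adjusted p = 0.0171), Psmb10 (0.0317) and Tapbp (0.0338), lower in TCP, and RT1-M2 (0.0492), higher in TCP. Without Control replicate 3, Psmb9, Psmb10 and Tapbp passed (adjusted p of 0.00903, 0.0378 and 0.0418), as did 37.5% of all genes. Both settings counted TCP replicates 2 and 3, which lay far closer together than other replicates, as separate libraries. With these 2 averaged in the fit of all groups, 16 of 12633 genes were called in TCP against Hydrogel, against 775 with them separate. In PCL against Hydrogel, all PCL libraries were lower for RT1-M2, Psmb9 and Nlrc5 (15.4% of genes). In PCL against TCP, all PCL libraries were lower for RT1-M2 and B2m (23.2% of genes) and higher for Tapbp (21.7% of genes).

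Since each induced subunit takes the place of a constitutive one, their FPKM ratio within a library does not depend on how libraries were scaled. The ratio of Psmb9 to Psmb6 was 0.590, 0.709 and 0.674 in Hydrogel, 0.577, 0.439 and 0.432 in PCL and 0.406, 0.469 and 0.421 in TCP, against 0.647, 0.654 and 0.122 in Control. All Hydrogel libraries lay above all PCL and all TCP libraries, and Control replicates 1 and 2 lay among the Hydrogel libraries. The ratio of Psmb10 to Psmb7 also set the Hydrogel libraries above all PCL and TCP libraries, with 0.620, 0.705 and 0.673 in Hydrogel, 0.601, 0.515 and 0.445 in PCL and 0.601, 0.585 and 0.523 in TCP, against 0.631, 0.563 and 0.366 in Control. The mean log2 ratio of Psmb9 to Psmb6 was -1.06 ± 0.23 in PCL and -1.21 ± 0.11 in TCP, each against -0.61 ± 0.14 in Hydrogel (SD, n = 3 each), and both differences gave p = 0.1 in the two-sided exact permutation test, the smallest p that 3 against 3 libraries allow. That of Psmb8 to Psmb5 ran from 0.502 to 0.678 in Hydrogel, 0.321 to 0.566 in PCL and 0.457 to 0.587 in TCP, against 0.156 to 0.719 in Control, and overlapped throughout. Over the 4 groups together the exact permutation p was 0.752 for Psmb8 to Psmb5, 0.707 for Psmb9 to Psmb6 and 0.243 for Psmb10 to Psmb7, without adjustment for the 3 ratios. B cells carry the immunoproteasome, and their 9 markers summed to 98.6 to 322 FPKM in PCL and 58.8 to 121 FPKM in TCP, each against 351 to 665 FPKM in Hydrogel. Among the scaffold libraries these markers thus separated Hydrogel from PCL and TCP, as the Psmb9 and Psmb10 ratios did. Control replicate 1 departed from this, with a B cell sum of 247 FPKM against 322 FPKM in PCL replicate 1 but higher ratios. Control replicate 2 departed from it for Psmb10 to Psmb7, with a B cell sum of 478 FPKM. Its ratio of 0.563 lay below those of PCL replicate 1 (0.601), TCP replicate 1 (0.601) and TCP replicate 2 (0.585). The sum of 11 class I transcription partners also separated Hydrogel (225 to 262 FPKM) from PCL (200 to 212 FPKM) and TCP (189 to 195 FPKM). In Control replicate 2 this sum was 237 FPKM, within the Hydrogel range. The part of either list in the ratios was not tested.

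**Figure D3:**
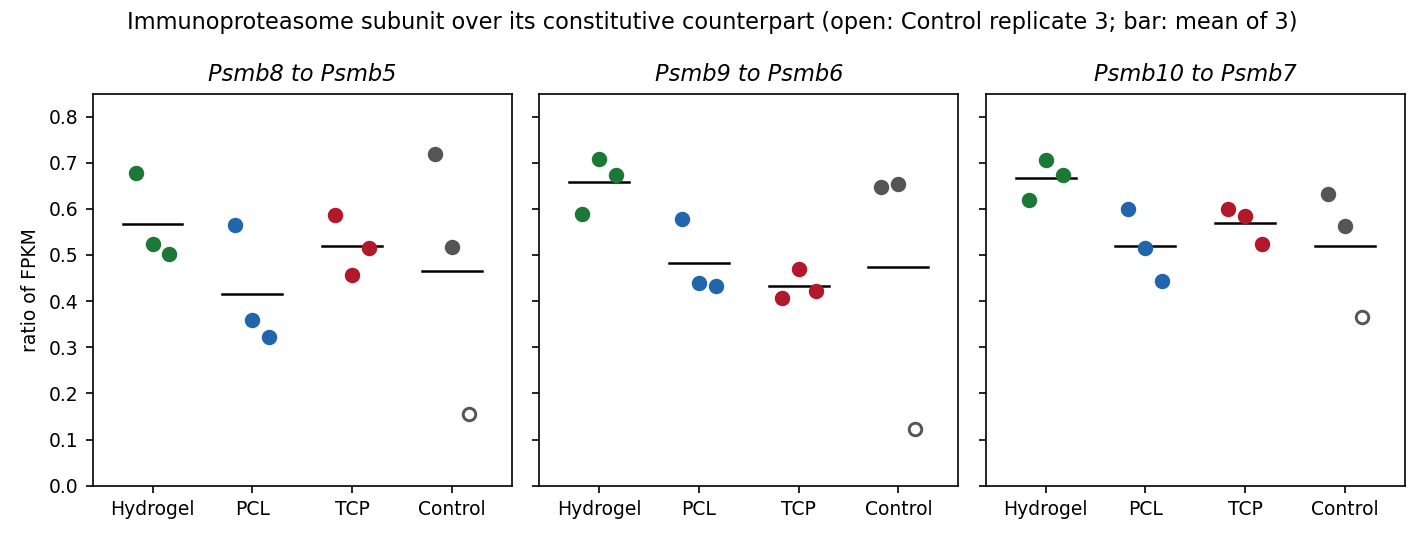
Ratio of the FPKM of each immunoproteasome subunit to that of the constitutive subunit it replaces (y axis, from 0) in each library of the Hydrogel, PCL, TCP and Control groups (x axis), with a bar at the mean of 3. For Psmb9 to Psmb6 and Psmb10 to Psmb7 the 3 Hydrogel points lay above all PCL and TCP points, and the open point, Control replicate 3, was the lowest of 12 in each panel.

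Few partners of these genes in the pathway passed the test. Of 8 class I loading partners, 0 were called in any of the 3 comparisons with Control. Among them Calr, a chaperone of the loading complex, had 437 to 525 FPKM in Hydrogel, 458 to 565 FPKM in PCL and 591 to 651 FPKM in TCP, against 524 to 620 FPKM in Control, and Pdia3, its thiol partner, had 244 to 303, 236 to 302 and 310 to 352 FPKM, against 276 to 354 FPKM in Control. The chaperone Canx and the peptide-trimming enzyme Erap1 had log2 differences of 0.16 and 0.29 in TCP against Control (adjusted p of 0.341 and 0.273, limma). Of 7 proteasome activators and assembly genes and of 11 further core subunits 0 were called, and Psme1 and Psme2, the activator subunits that interferon γ induces, differed by 0.50 and 0.38 in Hydrogel against Control (adjusted p = 0.312 for both, limma), within a list whose median difference there was 0.38. The constitutive subunits Psmb5, Psmb6 and Psmb7 differed from Control by 0.15 to 0.26 in Hydrogel, with 0 of 3 called.

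Interferon γ itself (Ifng) was listed at 0 in 11 of the 12 libraries and at 0.125 FPKM in Hydrogel replicate 2. Of 15 tested genes of its pathway, 1 was called in TCP against Control, the receptor chain Ifngr2, with 32.5, 41.1 and 42.9 FPKM in TCP against 25.9, 19.5 and 17.3 FPKM in Control and a log2 difference of 0.87 (adjusted p = 0.0466, limma), and 0 in Hydrogel and PCL. Irf1, a transcription factor that binds the response elements, differed by 0.30 in TCP against Control (adjusted p = 0.646, limma), and Ciita, the class II counterpart of Nlrc5, by 0.30 (adjusted p = 0.731). Irf1 had 14.7 FPKM in Control replicate 3, against 31.7 to 35.5 FPKM in the other 2 Control libraries. Of 6 tested class I receptors, 1 was called in TCP against Control, Lilrb3a, an inhibitory receptor of myeloid cells, with 7.07, 12.6 and 11.8 FPKM in TCP against 4.51, 3.90 and 1.21 FPKM in Control and a log2 difference of 1.52 (adjusted p = 0.0384, limma). Of 13 tested T and cytotoxic cell markers, Cd4 was the only one called (log2 difference 1.22, adjusted p = 0.0409), a marker that rat macrophages carry as well. With 1 call each, the 3 lists are not set apart from the 4.78% of all tested genes called in TCP against Control. None of these 3 calls held with TCP replicates 2 and 3 averaged, where the adjusted p was 0.19 for Ifngr2, 0.168 for Lilrb3a and 0.156 for Cd4 (limma), and none held without TCP replicate 2, TCP replicate 3 or Control replicate 2. Ifngr2 was not called without Control replicate 3 either (adjusted p = 0.0583). Over the 12 fits that left out 1 library, Ifngr2 was called in 4, Lilrb3a in 6 and Cd4 in 4.

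RT1-M2 stands among other class I heavy-chain genes. Of 26 other class I RT1 genes in the table, 16 passed the filter on low values and 0 of them were called in the 3 comparisons with Control, where their median log2 differences were 0.32 in Hydrogel, 0.11 in PCL and 0.18 in TCP. The most abundant were RT1-A2, with 67.6 to 108 FPKM in Hydrogel, 77.0 to 89.4 FPKM in PCL and 64.1 to 82.4 FPKM in TCP, against 55.8 to 126.7 FPKM in Control, and RT1-S3, with 52.7 to 65.9, 46.3 to 88.6 and 38.5 to 43.0 FPKM, against 9.92 to 55.2 FPKM in Control. Summed over the 26 genes, Control replicate 3 had 162 FPKM, the lowest of the 12 libraries. Control replicates 1 and 2 had 504 and 435 FPKM. The sums were 366 to 499 FPKM in Hydrogel, 346 to 439 FPKM in PCL and 326 to 360 FPKM in TCP. All TCP sums thus lay below those of Control replicates 1 and 2, although the median log2 difference was positive. Whether RT1-M2 differed from these genes in its change was not tested.

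Some RT1 genes varied among replicates as Tap2 did, and 2 are given here that were chosen after their values were seen. RT1-N2 had 16.9, 2.28 and 1.99 FPKM in Hydrogel, 16.1, 0.812 and 0.618 FPKM in PCL and 6.66, 5.16 and 5.17 FPKM in TCP, against 12.6, 15.1 and 2.36 FPKM in Control. RT1-A1 had 10.6, 73.3 and 44.0 FPKM in Hydrogel, 17.8, 49.5 and 47.2 FPKM in PCL and 31.6, 42.6 and 45.2 FPKM in TCP, against 51.1, 37.5 and 19.7 FPKM in Control. Hydrogel replicate 1 and PCL replicate 1 were the high libraries of their groups for RT1-N2 and the low ones for RT1-A1 and Tap2. TCP replicate 1 was placed likewise, within a narrower range. Control replicate 1 was not, with the highest RT1-A1 (51.1 FPKM) and Tap2 (2.73 FPKM) of its group beside 12.6 FPKM of RT1-N2. The RT1 complex is known to be highly variable between rats, and all reads were aligned to 1 reference genome. Allele differences were not tested, and PCL replicate 1 was also the low library of its group for RT1-M2.

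**Figure D4:**
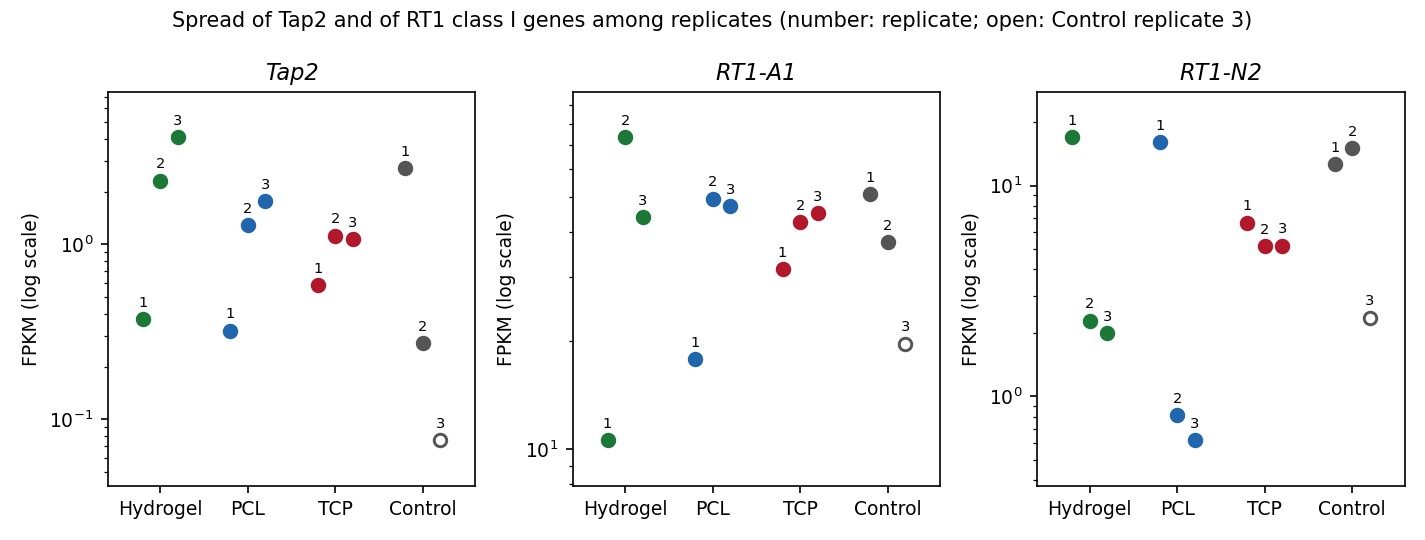
FPKM of Tap2, RT1-A1 and RT1-N2 (y axes, log scale) in each library of the Hydrogel, PCL, TCP and Control groups (x axis), with the replicate number above each point. Replicate 1 of Hydrogel and of PCL was the lowest of its group for Tap2 and RT1-A1 and the highest for RT1-N2, and the TCP libraries lay closer together.

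As to how the genes varied together, over the 12 libraries Tap1 and Tapbp had a Pearson r of 0.98 on the log2(FPKM + 1) scale, Psmb9 and Psmb10 0.97 and Psmb8 and Psmb9 0.94, and without Control replicate 3 these were 0.85, 0.85 and 0.66. Other pairs rested on that library, for example Tap1 and Psmb8, with 0.78 with it and -0.25 without it. RT1-M2 and B2m had an r of 0.79 (Spearman's rho 0.83), and 0.74 without Control replicate 3, but 0.27 on deviations from the group means, so that they went together between groups more than within them. The libraries share their group and cell content, and the correlations are descriptions. The tested genes most like RT1-M2 over the 12 libraries were Ndufa6 (r = 0.94), Rps10l1 (0.93), the interferon-inducible Ifi27 (0.91), the leukotriene receptor Ltb4r (0.90) and Arpc3 (0.89). Those most like the mean of the other 8 genes were Arhgap9, Fmnl1, the interferon-inducible GTPase Ifi47, Psme1 and the complement gene C3, with r of 0.98 for all 5.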

How the data were processed

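Reads were trimmed with Trimmomatic and aligned with hisat2 by the authors, who deposited FPKM per gene from cufflinks. The build listed in the submitters' processing notes is Rnor_6.0, and StringTie, Bowtie, HTSeq and DESeq are listed there too with neither role nor version. The methods and the labels name different library kits and sequencers. The table has 3 further value columns that match no sample label and were not used.

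The 12633 genes that reached 1 FPKM in 3 or more libraries entered a single limma fit (version 3.58.1, R 4.3.3) of log2(FPKM + 1) over the 12 libraries, with a trend and Benjamini-Hochberg adjustment, and the fit was tested on simulated data. Fragment numbers could be recovered from the FPKM, whole to within 0.01, for 18682 of 18684 genes above 0, and limma-voom on them was an alternative. Other alternatives were pseudocounts, filters, scalings, library weights, a replicate block and leaving out each library. Ratios were compared by exact permutation. Scripts used Python 3.11.15.

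The 9 genes and all gene lists were chosen with earlier results of these data known. Of 181 list genes, 179 matched by name and 1 by its identifier, and Ocstamp was not used here. Besides the 9 genes and fixed pathway partners, genes were named from a list when called, up to 4 by size, or else the 2 most abundant, and the 5 most alike by correlation, and not every gene so chosen is printed. Promoter sequences are from RefSeq (GRCr8), an assembly other than that of the files. Proteins were not analysed here.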

Additional observations from a re-analysis of the deposited data

How the results depend on the processing

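The number of the 9 genes called was 2 in TCP against Control and 0 in the other comparisons. With TCP replicates 2 and 3 averaged, with no filter, quantile normalization, the replicate block, limma-voom or only the groups compared it was 1 in TCP against Control, RT1-M2 in each case, and leaving out 1 library gave 1 to 2 there (1 without Control replicate 2, Hydrogel replicate 1 or any PCL or TCP replicate). RT1-M2 was called in TCP against Control in all 24 alternatives, with adjusted p of 3.53e-07 to 0.043, and B2m in 10. Leaving out 1 library gave 0 to 1 in Hydrogel and in PCL against Control (1 without PCL replicate 1), 0 to 3 in TCP against Hydrogel (3 without Control replicate 3) and 0 to 1 in PCL against TCP (1 without Control replicate 3, beside 15.1% of all genes). Only the groups compared gave 4 in TCP against Hydrogel, with TCP replicates 2 and 3 kept separate, beside 33.6% of all genes. The replicate numbers did not pair the libraries (correlations of same-numbered deviations from -0.61 to 0.47), and the replicate block changed no other count. Weights per library, whose estimation stopped before it converged, called 33% to 67.6% of all genes in the 3 comparisons with Control, 19.6% in PCL and 58.9% in TCP against Hydrogel and 54.3% in PCL against TCP, and 3 of the 9 genes in Hydrogel, 6 in PCL and 8 in TCP against Control, 3 in PCL and 6 in TCP against Hydrogel, and 4 in PCL against TCP. With these weights the log2 difference reversed in Hydrogel to -0.018 for Tap1, -0.91 for Tap2, -0.12 for Psmb8 and -0.17 for Nlrc5, in PCL to -0.74 for Tap2, -0.83 for Psmb8, -0.38 for Psmb9 and -0.38 for Nlrc5, and in TCP to -0.23 for Tap1, -0.85 for Tap2, -0.25 for Tapbp, -0.55 for Psmb8, -0.31 for Psmb9 and -0.35 for Nlrc5, which left 5, 5 and 3 of 9 differences positive. Leaving out 1 library, the difference from Control ran in Hydrogel from -0.036 to 1.09 for Psmb8, in PCL from -0.10 to 0.79 for Tap2, -0.0069 to 0.66 for Tapbp, -0.50 to 0.63 for Psmb8, -0.22 to 0.96 for Psmb9 and -0.29 to 0.70 for Nlrc5, and in TCP from -0.25 to 0.64 for Tap1, -0.19 to 0.71 for Tap2, -0.30 to 0.37 for Tapbp, -0.31 to 0.82 for Psmb8, -0.32 to 0.86 for Psmb9 and -0.22 to 0.77 for Nlrc5, the lowest without Control replicate 3 each time. Tap2 in TCP was also negative (-0.070) without Control replicate 2. The ratio of summed subunits in place of Psmb9 to Psmb6 gave log2 differences of -0.32 in TCP against Hydrogel and -0.11 in PCL against TCP. Psmb9 to Psmb6 itself gave -0.60 and 0.15, so that the difference in PCL against TCP reversed. Median-of-ratios scaling moved the median difference of all genes in Hydrogel against Control to 0.0245, against 0.14 as deposited. The causes were not tested. With 3 libraries a group, and RT1-M2 at 10 to 13 fragments per Control library the precision is limited, and a p that misses the threshold does not show that values were alike.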
